A study of Mus musculus with 6 samples.

Results

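Notch pathway genes were examined in dystrophin-deficient muscle, from mdx mice, after antibody treatment aimed at regulatory T cells. The 10 genes are the receptors Notch1, Notch2 and Notch3, the ligands Dll1, Jag1 and Jag2, the DNA-binding factor Rbpj and the target genes Hes1, Hey1 and Heyl. They were chosen by symbol, and all 10 were measured, out of 19752 genes with a probe set of their own. Muscle of 3 samples came from mdx mice given the rat antibody clone PC61 against CD25, which is the alpha chain of the interleukin-2 receptor and abundant on regulatory T cells. The other 3 came from mdx mice given rat IgG. Every sample carries the mdx mutation and an injected rat antibody, and no group of healthy or uninjected mice was analysed here. Antibody was injected into the peritoneum on days 17 and 20 of age, with a dose written as 100 mg. Dissection 7 days after the last injection would be day 27, whereas the sample labels give 6 weeks, which is day 42, and call every animal male. Whether the 3 samples of a group are separate animals is not stated, so p-values rest on a spread that may be technical in part.

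Notch signalling passes between touching cells. A Delta or Jagged ligand on one cell pulls on a Notch receptor on its neighbour, the receptor is cut by ADAM proteases and then by gamma-secretase, and the freed intracellular part joins RBPJ on DNA and switches on genes of the Hes and Hey repressor families. In muscle the pathway is known for keeping satellite cells, the stem cells of the fibres, quiescent and undifferentiated, and in vessels it takes part in endothelial sprouting and in the identity of arterial and mural cells.

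RBPJ binds the core TGGGAA, which is why promoter sequence is shown for genes of this pathway. In RefSeq windows of 300 bases (build GRCm38.p6, 250 before and 50 after the start of transcription), the core or its reverse complement TTCCCA was found in 25.56% of 32851 windows of all genes. Of the members, 7 have such a window (9 windows in all), namely Notch1, Notch2, Notch3, Dll1, Jag1, Jag2 and Rbpj. The core was present in 1 of these 7, Rbpj, whose first window holds it 2 times. Hes1, Hey1 and Heyl have no entry. Among the other pathway genes named below, Hey2 and Lfng hold the longer form CGTGGGAA, whose reverse complement is TTCCCACG, and the windows of Dll4 and Nrarp hold neither form. The longer form, which includes the core, occurred in 0.7336% of all windows and was searched for after the core had been seen. In Hey2 it occurs 2 times, beginning 207 and 5 bases before the start site and in opposite orientation. A match describes letters in a window and shows no binding. The first 260 bases of each window, 5′ to 3′ along the gene, follow for the member that holds the core and for both genes that hold the longer form, with matches in capitals.
Rbpj, chr5:53590096-53590355, plus strand: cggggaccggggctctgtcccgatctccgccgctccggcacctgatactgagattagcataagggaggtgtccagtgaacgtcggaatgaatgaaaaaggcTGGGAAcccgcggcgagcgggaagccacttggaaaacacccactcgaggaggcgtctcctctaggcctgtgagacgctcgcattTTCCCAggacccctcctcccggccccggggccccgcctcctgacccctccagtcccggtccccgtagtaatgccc
Hey2, chr10:30842774-30843033, minus strand: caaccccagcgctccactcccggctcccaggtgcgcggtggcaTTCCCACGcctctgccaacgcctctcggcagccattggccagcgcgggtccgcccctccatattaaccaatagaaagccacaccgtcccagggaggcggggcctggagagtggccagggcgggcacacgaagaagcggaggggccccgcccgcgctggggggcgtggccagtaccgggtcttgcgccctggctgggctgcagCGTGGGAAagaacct
Lfng, chr5:140607091-140607350, plus strand: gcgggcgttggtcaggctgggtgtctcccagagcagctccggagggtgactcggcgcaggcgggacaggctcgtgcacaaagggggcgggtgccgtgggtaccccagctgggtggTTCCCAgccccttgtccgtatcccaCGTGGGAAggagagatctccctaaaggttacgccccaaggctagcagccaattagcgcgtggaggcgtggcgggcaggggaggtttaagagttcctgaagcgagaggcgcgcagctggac

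Each sample gave 1 Affymetrix array, and precision is limited by having 6 of them. Values are log2 of the deposited RMA intensities, and brightness of different probe sets does not rank RNA amounts, so differences are taken within a gene. Brightness is used to tell dim probe sets from bright ones. It also enters the summed intensities of marker lists, in which the brightest probe sets weigh most. Differences are anti-CD25 minus rat IgG in log2 units. Median intensities ran from 149.8 to 151.5 over the 6 arrays. Rat IgG 3 lay closest to anti-CD25 2 rather than to its own group. Xist, made from the inactive X chromosome, was at 5.48 on rat IgG 3 and 5.49 on anti-CD25 3, against 11.8 to 11.9 on the other 4 arrays, and the Y-linked genes Kdm5d and Eif2s3y showed the opposite. The labelled sex therefore does not hold for every array, and each group holds 2 arrays with high Xist and 1 with low Xist. The arrays of a group thus cannot all come from 1 animal, and the spread within a group includes this split. Whether the 2 high-Xist arrays of a group are separate animals stays unknown. Fibre markers such as Ckm and Acta1 were bright: none of the 12 in the fibre list lay below the median gene. Foxp3 and Il2ra, which mark regulatory T cells, differed by -0.092 (SE 0.099) and -0.0049 (SE 0.094), with Il2ra below the lower quartile of genes by intensity and Foxp3 below the median. All 7 regulatory T cell markers were below 0, against 58.9% of all genes, and none passed the adjusted test. The lowest were Lrrc32 at -0.24 and, without overlap, Ctla4 at -0.21, where 7.46% of all genes were lower without overlap. Of the 7, 5 lay below the median gene by intensity, and the list's median difference was -0.092. In the general T cell list, 6 of 8 measured genes were below 0, with a median of -0.085. Of these 8, 7 lay below the median gene by intensity. The dimmest 30% of all genes had a median difference of -0.080 as deposited. The part of this offset in both lists was not tested.

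None of the 10 members passed limma at the adjusted threshold of 0.05, and 0% of all 19752 genes did. At an unadjusted p under 0.05 there was 1 member, Heyl, which was lower. Of all genes, 6.28% reached that p, with 3.98% lower and 2.3% higher. The groups overlapped in all 10 members, while 11.7% of all genes had no overlap, 4.28% higher and 7.46% lower. The difference was below 0 in 7 of the 10, against 58.9% of all genes, and the median difference was -0.053 against -0.026. With an array left out, 6 to 8 members were lower, 6 when anti-CD25 2 was dropped and 8 when rat IgG 2 was. The members' own range over the 6 arrays ran from 0.18 log2 units for Dll1 to 0.90 for Heyl. Each member lay above the median gene in mean intensity.

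**Figure D1:**
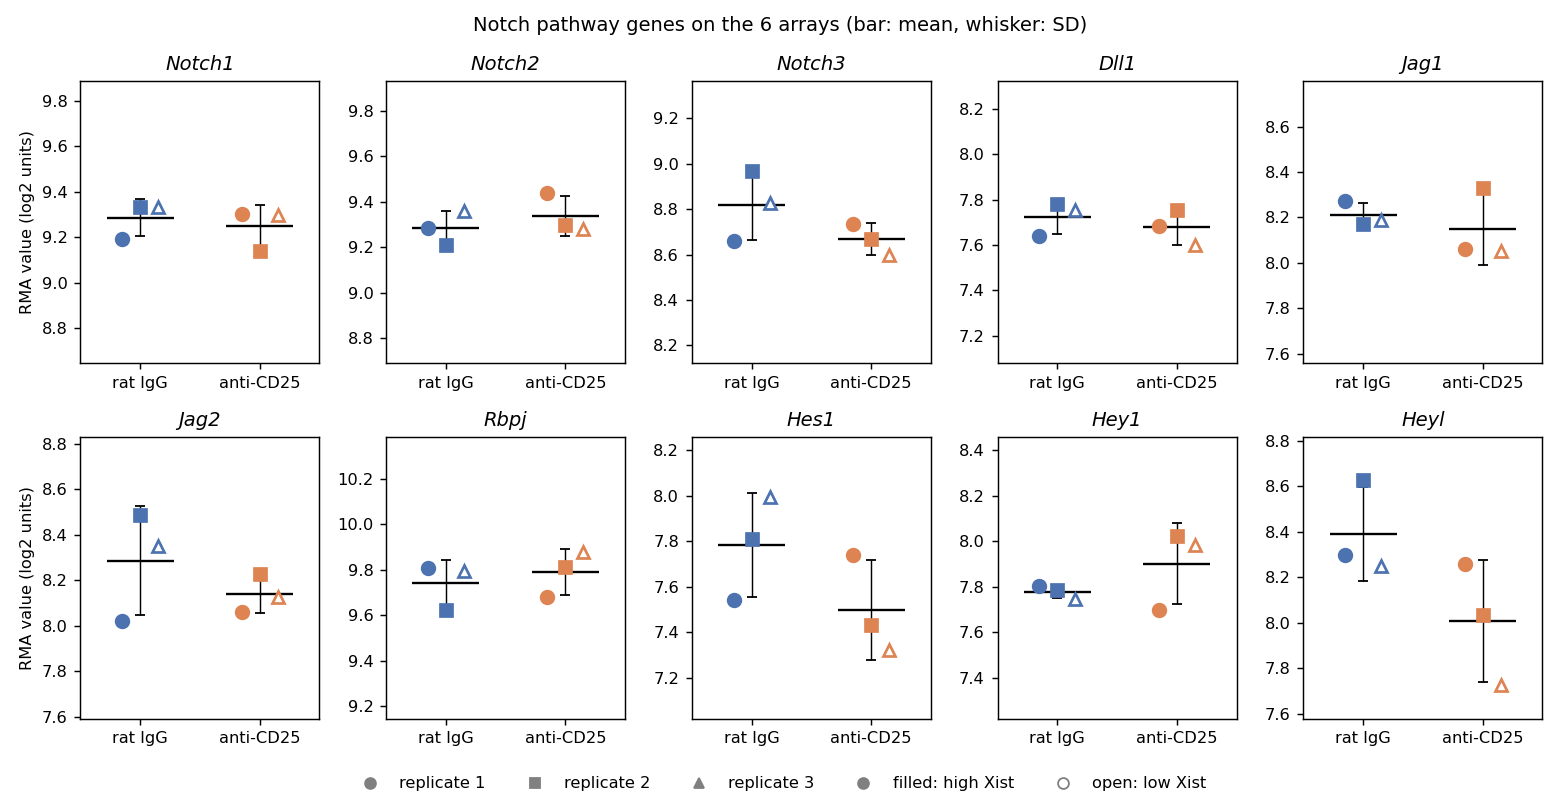
RMA values in log2 units of the 10 members on each of the 6 arrays, 1 panel per gene with the same span on every vertical axis; horizontal bars are means, whiskers SD (n = 3), symbols the replicate number, and open symbols the arrays with low Xist. The groups overlap in every panel, with Heyl and Hes1 lowest on anti-CD25 3, at 7.73 and 7.32.

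Notch1 and Notch2 differed by less than their SE between the treatments. Notch1, the receptor most studied in satellite cells, measured 9.19, 9.33 and 9.33 on the rat IgG arrays and 9.30, 9.14 and 9.30 on the anti-CD25 arrays. The lowest values were on anti-CD25 2 and rat IgG 1, and the groups overlapped. The difference was -0.038 (SE 0.087, 95% interval -0.24 to 0.16), and it was 0.015 without anti-CD25 2. Notch2, a receptor that satellite cells also carry, measured 9.28, 9.21 and 9.36 with rat IgG and 9.44, 9.30 and 9.28 with anti-CD25. Its highest value was on anti-CD25 1, and the groups overlapped. The difference of 0.054 (SE 0.085) was 0.12 on the 4 high-Xist arrays and -0.080 on the low-Xist pair.

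Notch3, the receptor of pericytes and vascular smooth muscle, had the largest difference among the receptors. It measured 8.66, 8.97 and 8.83 with rat IgG and 8.74, 8.67 and 8.60 with anti-CD25. Rat IgG 1 lay among the anti-CD25 values, and the other rat IgG arrays lay above them. The difference was -0.15 (SE 0.098, 95% interval -0.37 to 0.071), limma adjusted p = 0.762. It was -0.23 without rat IgG 1 and -0.076 without rat IgG 2, -0.11 on the high-Xist arrays and -0.23 on the low-Xist pair. Notch4, an endothelial receptor outside the 10 members, differed by -0.062 (SE 0.099), a value that turned to 0.021 without rat IgG 3.

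All 3 member ligands had a difference below 0, as had 58.9% of all genes, and none stood apart from its spread. Dll1, the Delta ligand of activated satellite cells and myoblasts, measured 7.64, 7.78 and 7.75 with rat IgG and 7.68, 7.75 and 7.60 with anti-CD25. These values interleaved, with anti-CD25 3 lowest. The difference was -0.045 (SE 0.084), with 0.010 on the high-Xist arrays and -0.15 on the low-Xist pair. Jag1, a Jagged ligand of endothelium and smooth muscle, measured 8.27, 8.17 and 8.19 with rat IgG and 8.06, 8.33 and 8.05 with anti-CD25. Anti-CD25 2 was the highest of the 6 arrays and the other anti-CD25 arrays were the lowest. The difference was -0.061 (SE 0.097). It was -0.15 without anti-CD25 2, -0.014 without anti-CD25 3, -0.018 without anti-CD25 1 and -0.031 without rat IgG 1.

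Jag2, a second Jagged ligand, measured 8.02, 8.49 and 8.35 with rat IgG and 8.06, 8.23 and 8.13 with anti-CD25. Rat IgG 1 was the lowest of all arrays, while the other rat IgG arrays were the highest. The difference was -0.15 (SE 0.12, 95% interval -0.43 to 0.13). It was -0.28 without rat IgG 1 and -0.048 without rat IgG 2. Notch3 and Jag2 thus had the same arrays high and low among the controls.

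Rbpj, the factor through which all Notch receptors reach DNA, measured 9.81, 9.62 and 9.79 with rat IgG and 9.68, 9.81 and 9.88 with anti-CD25. The lowest value was on rat IgG 2 and the highest on anti-CD25 3, and the others were mixed. The difference was 0.049 (SE 0.092), and it was -0.0097 without rat IgG 2. The other probe set of Rbpj differed by 0.012 (SE 0.13).

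The 3 target genes had the largest differences below and above 0 among the members, with Heyl and Hes1 lower on average and Hey1 higher. Heyl, a Hey-family repressor found in mural cells and in quiescent satellite cells, measured 8.30, 8.63 and 8.25 with rat IgG and 8.26, 8.03 and 7.73 with anti-CD25. Anti-CD25 1 lay just above rat IgG 3, which was the only crossing between the groups. Its mean was 8.39 ± 0.21 (SD, n = 3) against 8.01 ± 0.27 (SD, n = 3), a difference of -0.38 (SE 0.15, 95% interval -0.72 to -0.043), or 1.31-fold lower. Limma gave unadjusted p = 0.0313 and adjusted p = 0.750, with an exact permutation p (two-sided) of 0.2 in a design whose smallest possible p is 0.1. The Heyl difference was -0.32 on the high-Xist arrays and -0.52 on the low-Xist pair. It lay below 0 in all 18 alternatives, from -0.52 to -0.24, with adjusted p from 0.227 to 1.00. Leaving out anti-CD25 3 gave the value nearest 0, and leaving out rat IgG 2 gave -0.27.

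Hes1, the basic helix-loop-helix repressor that is the classical Notch target, measured 7.54, 7.81 and 7.996 with rat IgG and 7.74, 7.43 and 7.32 with anti-CD25. Rat IgG 1 lay below anti-CD25 1, and the lowest and highest of the 6 were the arrays with low Xist. The mean was 7.78 ± 0.23 (SD, n = 3) against 7.50 ± 0.22 (SD, n = 3), a difference of -0.29 (SE 0.14, 95% interval -0.61 to 0.038). Limma gave unadjusted p = 0.0771 and adjusted p = 0.750, with an exact permutation p (two-sided) of 0.2. Most of the difference lay on the low-Xist pair, at -0.68, against -0.090 on the other 4. Without rat IgG 3 it was -0.18, and without anti-CD25 3 it was -0.20.

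Hey1, which acts in satellite cells and in arterial endothelium, measured 7.80, 7.78 and 7.75 with rat IgG and 7.70, 8.02 and 7.98 with anti-CD25. The controls lay close together (SD 0.030), while anti-CD25 1 was the lowest array and the other anti-CD25 arrays were the highest. The difference was 0.12 (SE 0.10, 95% interval -0.11 to 0.35), and 0.22 without anti-CD25 1 and 0.061 without anti-CD25 2. Hes1 and Hey1 therefore had their extremes on different arrays, and no direction was common to all 3 targets.

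**Figure D2:**
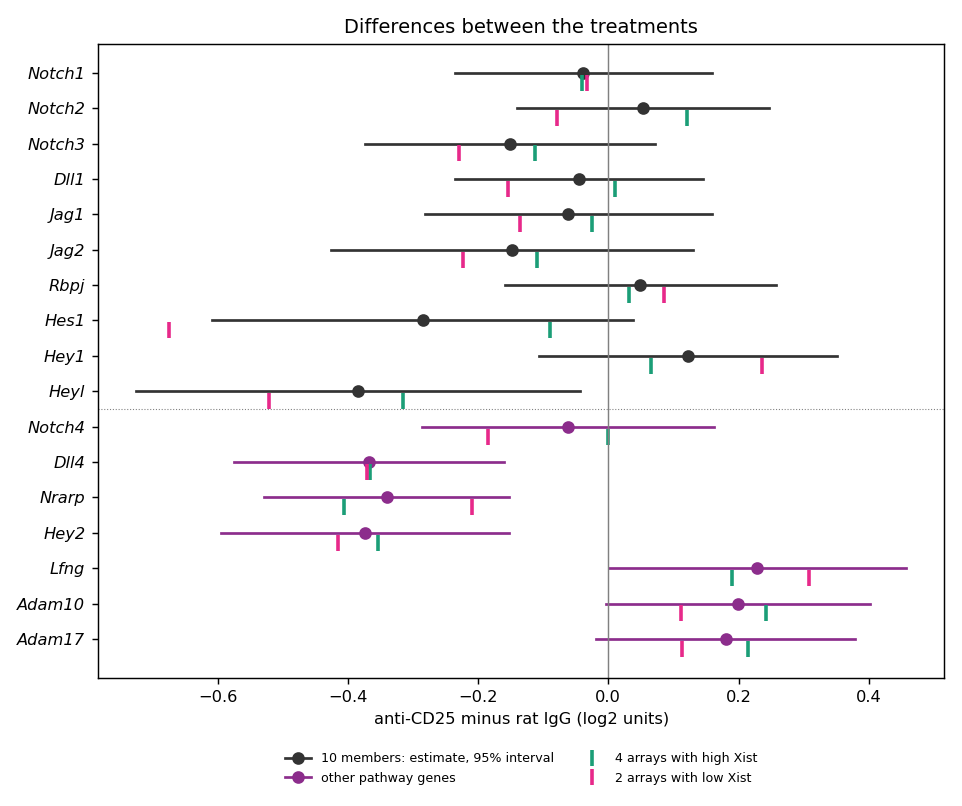
Differences between anti-CD25 and rat IgG in log2 units, with limma's 95% intervals over all 6 arrays, for the 10 members and 7 other pathway genes; green ticks are the 4 arrays with high Xist and pink ticks the other 2. Only the Heyl interval lies wholly below 0 among the members, and for Hes1 the ticks lie far apart, at -0.090 and -0.68.

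The rest of the pathway was taken from 8 lists by role, with 57 of 59 genes measured including the 10 members. None passed the adjusted test, and at an unadjusted p under 0.05 there were 5, Heyl, Dll4, Nrarp and Hey2 below 0 and Lfng above, where 6.28% of all genes reached that p. Over the alternatives this count ran from 3 to 8. It was 3 without rat IgG 2 and 8 without rat IgG 1, without rat IgG 3 or with a variance trend and robust fitting. The groups did not overlap in 14 of the 57, 6 higher and 8 lower, against 11.7% of all genes. The median difference of the 57 was -0.028, close to the -0.026 of all genes.

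Dll4, the Delta ligand of endothelium that restrains sprouting, measured 7.84, 7.95 and 7.74 with rat IgG and 7.54, 7.52 and 7.37 with anti-CD25. Every control lay above every treated array. The difference was -0.37 (SE 0.092, 95% interval -0.58 to -0.16), with limma's unadjusted p = 0.00316 and adjusted p = 0.750. It was -0.37 both on the high-Xist arrays and on the low-Xist pair, and -0.42 to -0.31 over the alternatives, whose adjusted p ran from 0.111 to 1.00.

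Nrarp, a Notch target whose small protein binds the Notch complex and dampens it, measured 7.66, 7.62 and 7.53 with rat IgG and 7.18, 7.29 and 7.32 with anti-CD25. The groups stood apart by more than the spread inside either. The difference was -0.34 (SE 0.083, 95% interval -0.53 to -0.15), with limma's unadjusted p = 0.00276 and adjusted p = 0.750. It was -0.41 on the high-Xist arrays and -0.21 on the low-Xist pair.

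Hey2, a Hey-family repressor of arterial endothelium, measured 5.65, 5.83 and 5.74 with rat IgG and 5.53, 5.25 and 5.33 with anti-CD25, again without overlap. The difference was -0.37 (SE 0.098, 95% interval -0.60 to -0.15), with limma's unadjusted p = 0.00416 and adjusted p = 0.750. Hey2 is dim, and the 30% dimmest genes had a median difference of -0.080 as deposited. After a second quantile normalization the Hey2 difference was -0.31, with limma's unadjusted p = 0.0215. By limma's unadjusted p on the values as deposited, Nrarp, Dll4 and Hey2 ranked 48, 55 and 81 among the 19752 genes.

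Lfng, the Fringe enzyme that adds sugar to Notch and alters which ligand it answers, measured 8.07, 8.23 and 8.28 with rat IgG and 8.36, 8.32 and 8.59 with anti-CD25. All treated arrays lay above the controls, by a small margin. The difference was 0.23 (SE 0.10, 95% interval 0.00094 to 0.46), with limma's unadjusted p = 0.0492 and adjusted p = 0.750. It was 0.15 without anti-CD25 3.

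**Figure D3:**
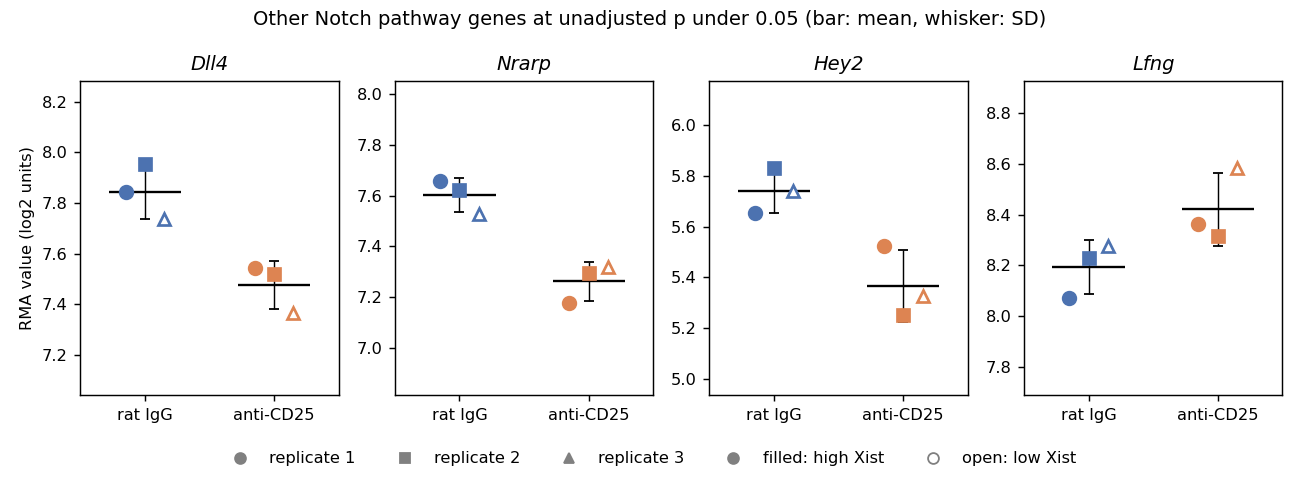
RMA values in log2 units of Dll4, Nrarp, Hey2 and Lfng on the 6 arrays; bars are means, whiskers SD (n = 3), and open symbols the arrays with low Xist. In each panel the groups do not overlap, and these genes are shown because they had an unadjusted p under 0.05.

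By role, the 8 genes listed as target repressors had a median of -0.22 with 6 of 8 below 0. The 5 Delta and Jagged ligands had a median of -0.061 with all 5 below 0. Of all genes, 58.9% were below 0. The other genes of the target list were Hes5 at -0.16, Hes6 at 0.0013 and Hes7 at -0.073. Hes5 and Hes7 were lower on the high-Xist arrays, by -0.35 and -0.32, and higher on the low-Xist pair, by 0.20 and 0.42. The lower quartile of array intensity split alike, at 57.65 on rat IgG 1 and 2 and 56.5 on anti-CD25 3. It was 51.2 on rat IgG 3, and 51.9 and 51.4 on anti-CD25 1 and 2. The part of this offset in the Hes5 and Hes7 values was not tested. The nuclear complex had 8 of 9 measured genes above 0, against 8121 of all 19752 genes, with a median of 0.045. This group holds Rbpj, the Mastermind coactivators and the acetyltransferases Ep300 and Crebbp, with 0.064 for Ep300 the highest value and -0.11 for Maml1, a Mastermind gene, the only one below 0. Among the genes of receptor cleavage, Adam10, which makes the ligand-dependent cut, was above 0 without overlap at 0.20 (SE 0.089). Adam17, a related protease that can also cut Notch, was above 0 without overlap at 0.18 (SE 0.088). Limma's adjusted p = 0.750 for each, and without rat IgG 2 they were at 0.13 and 0.11. The gamma-secretase subunits Psen2, Ncstn, Aph1a, Aph1b and Psenen ran from -0.035 to 0.073. In the group of endocytosis and turnover, 9 of 13 genes were below 0, against 58.9% of all genes, and none had an unadjusted p under 0.05. Without overlap, 4 of the 13 were lower and 2 higher, against 7.46% and 4.28% of all genes. The lower were Neurl1a at -0.21, Dtx1 at -0.18, Dtx4 at -0.14 and Neurl1b at -0.13, and the higher Aak1 at 0.11 and Numb at 0.064.

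**Figure D4:**
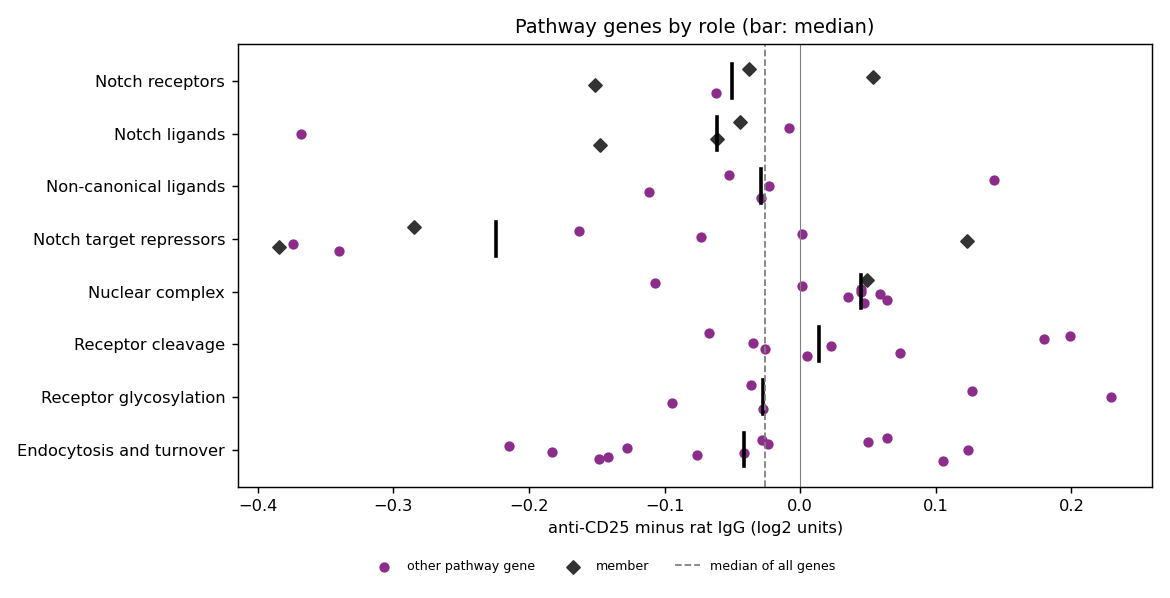
Differences between anti-CD25 and rat IgG in log2 units for the 57 measured pathway genes, in 8 groups by role; diamonds are the 10 members, bars the group medians and the dashed line the median of all genes, -0.026. Genes listed as target repressors reach furthest below 0, with a median of -0.22, and the nuclear complex lies close to 0.045.

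Muscle is a mixture of cells, and in bulk RNA fewer cells of a type and less RNA per cell cannot be told apart. Mural and smooth muscle markers, the cells known for Notch3 and Heyl, had 8 of 12 genes below 0, against 58.9% of all genes. Their median was -0.058. Pdgfrb, Cspg4 and Kcnj8 were below 0 without overlap, at -0.18, -0.25 and -0.36, and had limma's unadjusted p under 0.05. These were 3 of the 12, against 7.46% of all genes lower without overlap and 3.98% lower at that p. Rgs5 differed by 0.040. Of the contractile genes, Cnn1 was above 0 without overlap at 0.20, and Myh11, Tagln and Acta2 differed by 0.16, 0.020 and -0.057 with overlap. Of all genes, 4.28% were higher without overlap. Summed intensity of the 12 ran from 11055 to 11733 with rat IgG and from 10195 to 11249 with anti-CD25. The list mean per array was 0.015, 0.089 and -0.0071 with rat IgG and -0.020, 0.043 and -0.12 with anti-CD25, so anti-CD25 3, lowest for Heyl and Notch3, was also lowest here. The part of these cells in the Heyl and Notch3 values was not tested.

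Endothelial markers, the cells known for Dll4, Hey2 and Nrarp, had 11 of 18 genes below 0, against 58.9% of all genes. Their median was -0.012. Pecam1 and Cdh5, which define the endothelium, differed by 0.022 and 0.00047, and both were bright on every array. Summed intensity of the 18 ran from 10081 to 11375 with rat IgG and from 10169 to 10673 with anti-CD25. The VEGF receptor Kdr differed by -0.27 and the angiopoietin receptor Tek by -0.20, both with overlap. Bcl6b, the list's lowest at -0.75, Egfl7 at -0.25 and Cldn5 at -0.24 were lower without overlap. These were 3 of the 18, against 7.46% of all genes, and none passed the adjusted test. Also below 0, with overlap, were Gja5 at -0.17, Erg at -0.088, Tie1 at -0.031, Efnb2 at -0.014, Eng at -0.011 and Emcn at -0.0018. The 7 above 0 all overlapped. They were Sox17 at 0.23, the list's highest, Sox18 at 0.13, Nos3 at 0.12, Gja4 at 0.065, Esam at 0.039, Pecam1 and Cdh5. Satellite cell and myoblast markers, which bear on Dll1, Heyl and Hey1, had 8 of 12 genes below 0, against 58.9% of all genes. Their median was -0.14. Pax7, which defines satellite cells, was -0.14 without overlap (limma adjusted p = 0.750). Calcr, a mark of quiescence, and Itga7 were also lower without overlap, at -0.16 and -0.15. These made 3 of the 12, against 7.46% of all genes. Below 0 with overlap were Mymk at -0.22, Myod1 at -0.17, Cdh15 at -0.15, Megf10 at -0.13 and Pax3 at -0.12. The 4 above 0 were Chodl at 0.14, Sdc4 at 0.091, Myf5 at 0.058 and Myog at 0.0073. Summed intensity of the 12 satellite cell and myoblast markers ran from 5981 to 6448 with rat IgG and from 5435 to 6620 with anti-CD25.

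Macrophage markers were above 0 in 16 of 16 genes, against 8121 of all 19752 genes, with a median of 0.30 and no gene past the adjusted test. At limma's unadjusted p under 0.05, 7 of the 16 were higher, against 2.3% of all genes. Mertk at 0.71 and Cd163 at 0.51 were higher without overlap, 2 of 16 against 4.28% of all genes. Cd68, a defining marker, differed by 0.45 (SE 0.17) with overlap. Summed intensity of the 16 ran from 17699 to 22064 with rat IgG and from 21412 to 29339 with anti-CD25. The list mean was lowest on rat IgG 2, at -0.40, the array with the highest Heyl, Notch3 and Jag2. The part of macrophage RNA in the values of the Notch genes was not tested. None of the defining markers named here was at 0, since RMA gives every probe set a value above 0.

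**Figure D5:**
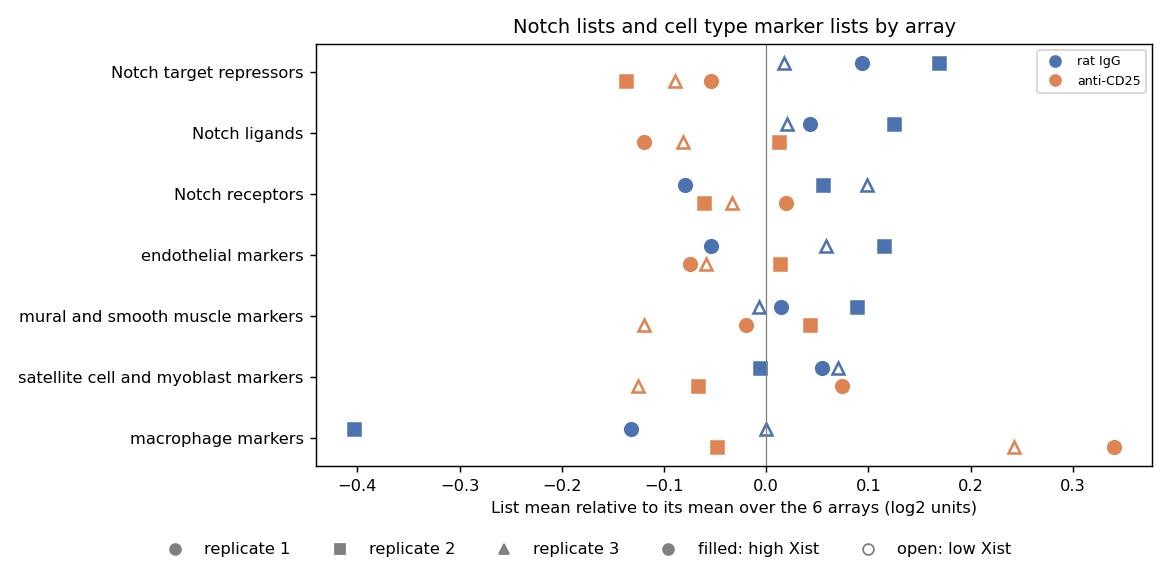
Mean of each list on each array, relative to the list's mean over the 6 arrays, in log2 units, for 3 Notch lists and 4 cell type marker lists; colours are the treatments, symbols the replicate numbers and open symbols the arrays with low Xist. The list of target repressors lies at 0.018 to 0.17 on the control arrays and at -0.14 to -0.054 on the treated arrays. The ligands are also apart, at 0.021 to 0.13 and at -0.12 to 0.012, while the receptors and the 4 marker lists overlap between the treatments. Of single genes, 11.7% had no overlap.

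The array-to-array pattern of the 3 targets was set against 9475 genes at or above the median intensity outside the lists, by Pearson's r over the 6 arrays. The nearest genes were Agap1 and Mrps34 for Hes1 (r = 0.994 and 0.991), Cse1l and Bag5 for Hey1 (r = 0.984 and 0.980) and Ypel3 and Ccdc134 for Heyl (r = 0.997 and 0.994). With 6 arrays such values are common, and 129, 51 and 232 genes had r above 0.9, in that order. The arrays also share the treatment and the Xist split, so these values describe these arrays alone.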

How the data were processed

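RNA from flash-frozen muscle was biotin-labelled and hybridised to Affymetrix arrays, per the labels' protocols. The table the authors deposited holds 24922 probe sets with 1 intensity per array, for 6 arrays. Per the submitters' processing notes these come from RMA in Affymetrix Power Tools, whose versions the sources used here do not state. The deposited intensities are linear, so log2 was taken, with no pseudocount and no intensity filter. Quantile-normalized dim values still differ between arrays (lower quartile 51.2 to 57.7), and RMA understates differences of dim probe sets.

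Probe sets were named through the platform table: 21425 had 1 symbol, 1399 several (not used) and 2098 none. The probe set with the highest mean stood for its gene, and Rbpj was the only member with several. Groups come from the sample titles. Limma 3.58.1 in R 4.3.3 (lmFit, eBayes, two-sided, group as the only term) was fitted to all 19752 genes with Benjamini-Hochberg adjustment, threshold 0.05, and tested on simulated data. The named genes are the 10 members, the other pathway genes with unadjusted p under 0.05, Notch4, Dll4, Hey2, Nrarp, the ADAM proteases and gamma-secretase, and the 2 genes most like each target. Other genes in the text were chosen after their values were seen, apart from defining markers. Members, lists and alternatives were chosen with earlier results of these data known. Alternatives covered scaling, variance model, array weights, intensity filters, probe sets, the replicate block, Xist and leaving out arrays. Another background correction needs scanner files, not used here.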

Additional observations from a re-analysis of the deposited data

How the results depend on the processing

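No member passed the adjusted test in any of 17 alternatives with a test. Over all genes, 7 passed without rat IgG 3 and 0 in the other 16, so leaving out each array gave 0 to 7. The members' median difference was below 0 in all 18 alternatives. On the low-Xist arrays, where no test can be run, it was -0.14, and it ran from -0.12 to -0.032 with each array left out. The median of the wider pathway was -0.052 after a second quantile normalization and ran from -0.040 to -0.014 with each array left out. Signs turned for Dll1 on the high-Xist arrays (0.010), for Rbpj without rat IgG 2 (-0.0097), for Notch1 without anti-CD25 2 (0.015), for Notch2 on the low-Xist pair (-0.080) and for Notch4 without rat IgG 3 (0.021), and the cause was not tested. With each array left out, Rbpj ran from -0.0097 to 0.10, Notch1 from -0.084 to 0.015 and Notch4 from -0.14 to 0.021. With the title number as a replicate block, 0 members and 0 genes passed, the members' median stayed at -0.053, and 4 wider pathway genes had an unadjusted p under 0.05 against 5 without the block. The arrays share only a number: deviations of same-numbered arrays correlated at 0.030, -0.0067 and -0.17, and no array correlated best with its own number. These counts say nothing about which genes. Heyl, Hes1, Notch3, Jag1, Jag2, Hey1, Dll4, Hey2, Nrarp, Lfng, Adam10 and Adam17 kept their sign in every alternative run. Hey2 could not be given with the intensity filters, which remove it. With 3 arrays per group, the 95% interval of a typical gene spanned 0.22 log2 units on either side, which limits what was detectable.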
